A study of Mus musculus with 8 samples.

Results

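The genes described here are 35 immediate-early response genes, taken by name from a table of 49585 mouse gene identifiers and followed through all 8 libraries of the series. All 35 were found and all 35 passed the filter on low values (a mean of at least 0.5 FPKM), among 16865 genes tested. FPKM is the number of reads scaled by gene length and by the reads of the library. The tissue is intestine of C57BL/6 mice. Each library came from a separate mouse, 4 named as Klebsiella recipients (mouse 1 to mouse 4) and 4 as Lactobacillus recipients (mouse 1 to mouse 4), which are called replicates 1 to 4 of each group below. Beyond the names of the groups, the sources used here do not say what the recipients were given, by which route or for how long, and they give no age, sex, gut segment, hour of sampling or order of dissection. There were no untreated mice among the groups analysed.

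Immediate-early genes are transcribed within minutes of a stimulus, without new protein synthesis, by transcription factors that already sit in the cell. Growth factors, cytokines, mechanical stretch and stress reach them through the ERK, JNK and p38 kinases, which act on serum response factor (SRF), its ETS-family partners and CREB. Many of the products are themselves transcription factors (AP-1, EGR, NR4A and KLF proteins), others switch the kinases or the messenger RNAs off again, and most of the transcripts are short-lived. In gut tissue the genes are known to respond to injury and repair, to luminal signals and also to dissection and handling before RNA is preserved.

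The promoters of 5 members whose levels moved widely between libraries are shown, so that the letters through which CREB-type and SRF-type factors are known to bind can be read beside the values. They are the 250 bases before the transcription start from RefSeq on GRCm38.p6, 5′ to 3′ on the strand of the gene. The 5 were picked by hand among members whose promoter holds the marked letters. That these letters are in all 5 was therefore set by the choice. The regions are chr12:85473640-85473889 (plus strand) for Fos, chr10:67537619-67537868 (plus strand) for Egr2, chr15:101266596-101266845 (plus strand) for Nr4a1, chr8:84978749-84978998 (minus strand) for Junb and chr1:134079156-134079405 (minus strand) for Btg2. Capitals mark TGACG, the core of the cAMP response element, on either strand (CGTCA on the other one), and in Egr2 also the CArG box, the site of SRF.
Fos: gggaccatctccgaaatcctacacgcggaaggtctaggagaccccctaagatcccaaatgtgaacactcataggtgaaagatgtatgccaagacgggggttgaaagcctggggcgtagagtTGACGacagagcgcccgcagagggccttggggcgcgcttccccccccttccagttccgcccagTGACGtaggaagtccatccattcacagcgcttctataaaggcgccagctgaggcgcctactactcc
Egr2: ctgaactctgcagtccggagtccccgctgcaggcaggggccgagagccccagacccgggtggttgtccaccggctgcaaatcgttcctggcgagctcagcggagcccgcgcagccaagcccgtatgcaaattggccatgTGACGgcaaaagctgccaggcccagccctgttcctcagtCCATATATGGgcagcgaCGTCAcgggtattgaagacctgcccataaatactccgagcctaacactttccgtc
Nr4a1: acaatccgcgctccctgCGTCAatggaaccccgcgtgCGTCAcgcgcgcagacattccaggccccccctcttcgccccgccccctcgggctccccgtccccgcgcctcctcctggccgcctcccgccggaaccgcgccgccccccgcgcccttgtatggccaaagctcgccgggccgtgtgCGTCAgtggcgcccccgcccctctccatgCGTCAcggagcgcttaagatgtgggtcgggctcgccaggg
Junb: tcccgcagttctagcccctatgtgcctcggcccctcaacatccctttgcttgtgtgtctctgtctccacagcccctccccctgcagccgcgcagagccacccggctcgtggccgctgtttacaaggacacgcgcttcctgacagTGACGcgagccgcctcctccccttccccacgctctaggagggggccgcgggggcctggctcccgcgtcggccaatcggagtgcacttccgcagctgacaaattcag
Btg2: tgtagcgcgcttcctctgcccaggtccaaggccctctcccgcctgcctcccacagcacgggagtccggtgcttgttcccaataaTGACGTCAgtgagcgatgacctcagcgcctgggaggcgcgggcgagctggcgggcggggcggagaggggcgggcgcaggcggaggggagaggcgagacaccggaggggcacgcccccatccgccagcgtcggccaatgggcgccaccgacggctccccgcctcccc
In Fos the marked runs begin 129 and 66 bases before the start. In Egr2 the CArG box begins 72 bases before the start, between TGACG runs at 111 and 55 bases. Nr4a1 has 4 such runs, all on the other strand, at 233, 213, 69 and 40 bases, and Btg2 has the full palindrome TGACGTCA.

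RefSeq promoter entries were found for 29 of the 35 members; Egr1, Egr3, Fosl1, Klf10, Ccn2 and Ier2 had none in the table. TGACG was in the 250 bases before a start of 17 of the 29 (58.6%), against 29.1% of 11478 tested genes with an entry and 17.8% of all promoters. The full TGACGTCA was in Btg2, Dusp1 and Maff (10.3%, against 2.93% of tested genes). The CArG box was in Dusp5, Egr2 and Zfp36 (10.3%, against 1.47%). The AP-1 site TGAGTCA was in 1 member, Csrnp1 (3.45%, against 4.29%). The EGR site GCGNGGGCG was in 11 (37.9%, against 10.1%). GGGCGG, the SP1 site, was in 25 (86.2%, against 60.8%). Motifs were searched on both strands, TGACG also lies within TGACGTCA, and a gene with several starts counted once. The promoters of members were also richer in G and C, with a median of 63.6% against 59.2% for tested genes, which raises the chance of motifs of G and C. A match of letters is not a site in use.

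At the other end of the transcript, the heptamer TATTTAT, the core of the AU-rich element through which tristetraprolin shortens the life of messenger RNAs, was in the 3′ untranslated region of 21 of 35 members (60.0%), against 29.6% of 13838 tested protein-coding genes. The median length of that region was 1109 bases for members and 1150.5 bases for tested genes, taking the longest of each gene in GENCODE release M21 (GRCm38). Ier3 had 4 copies, Dusp1, Zfp36 and Fosl2 had 3 each, and Egr1, Egr2 and Egr3 had 0. Members were also compact, with a median span of 5162 bases and a median of 4 exons, against 24024.5 bases and 9 exons. Exons of 9 members overlap exons of a gene on the opposite strand, which are Fosl1 (Ccdc85b), Jun (Junos), Junb (Prdx2), Jund (Gm11175), Dusp1 (Ergic1), Dusp5 (AC137853.2), Zfp36 (Gm44710), Csrnp1 (1700019L13Rik) and Ccn2 (Gm15270). The sources used here do not say whether counting used strand, so reads of these pairs cannot be told apart.

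Between 40455910 and 55447220 reads per library passed the filter of the authors. The reads behind each FPKM value were recovered from the steps in which the values move, and came to 15753959 to 21548070 per library over all genes. A member had between 9 reads (Egr3 in Klebsiella replicate 3) and 35138 reads (Egr1 in Klebsiella replicate 2) in a library, and 29 of 35 members had at least 100 reads in every library, so counting error is small beside the differences between mice for most of them. Transcripts that mark intestine were present in every library. The epithelial markers summed to 7048 to 9323 FPKM in Klebsiella and 6271 to 8528 FPKM in Lactobacillus libraries, and Fabp1 and Apoa4 of the small intestine were at most 0.444 and 0.0349 FPKM. Libraries of 1 group were not alike in other markers. Ctrb1, a pancreatic protease precursor, was at 0.289, 418, 0.279 and 0.131 FPKM in mice 1 to 4 of the Klebsiella group, against 2.49, 1.38, 112 and 2.99 FPKM in mice 1 to 4 of the Lactobacillus group. Hoxb6 marks position along the gut and had 2.97, 3.87, 40.2 and 1.16 FPKM in mice 1 to 4 of the Klebsiella group, against 3.19, 45.2, 1.97 and 2.36 FPKM in mice 1 to 4 of the Lactobacillus group. Results are therefore also given without Klebsiella replicate 2 and Lactobacillus replicate 3, which were high in Ctrb1, and without Klebsiella replicate 3 and Lactobacillus replicate 2, which were high in Hoxb6.

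The comparison asked whether the immediate-early genes differed between Klebsiella and Lactobacillus recipients. No member passed the test: with limma on log2(FPKM + 0.5) and Benjamini-Hochberg adjustment over all genes, 0 of 35 members had an adjusted p under 0.05, as did 0 of 16865 genes (0.00%), and the smallest adjusted p of a member was 0.774. At an unadjusted p under 0.05 limma had 6 of 35 members, all higher in Klebsiella recipients (Fosl1, Ier3, Nr4a2, Dusp5, Klf10 and Ccn2), against 6.07% of all genes in either direction and 2.55% in that one. For 0 of 35 members did the groups not overlap, against 2.99% of all genes. Of the members 29 had a positive log2 difference (Klebsiella minus Lactobacillus) and 6 a negative one, where 46.4% of all genes were positive. The median of the 35 differences was 0.56, against -0.017 over all genes, and 21 of 35 lay above 0.41, the 95th percentile of all genes. Members also varied more within groups, with a median pooled SD of 0.82 against 0.239 for all genes. Many moved together over the same mice, so these counts are not of independent genes. In RNA from whole tissue, fewer cells of a type and less RNA per cell cannot be told apart. Fosl1 had the largest positive difference, at 2.27, and Fosb the largest negative one, at -0.91.

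**Figure D1:**
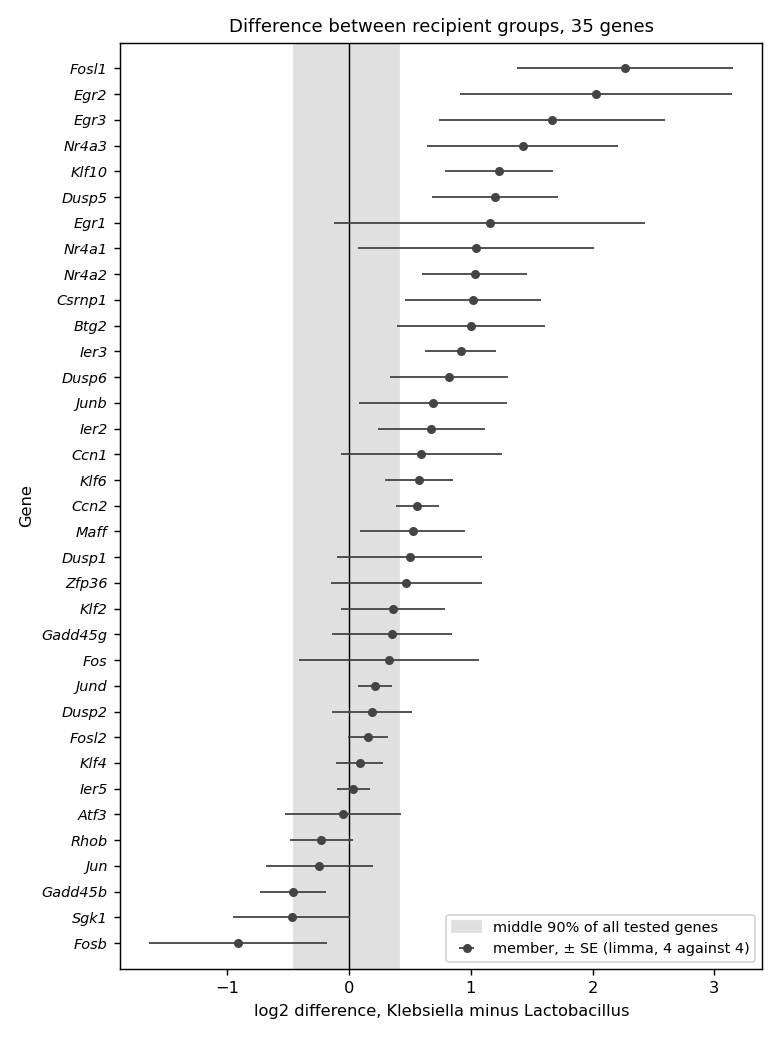
The log2 difference between Klebsiella and Lactobacillus recipients (x axis) of each of the 35 genes (y axis), with its standard error from limma over 4 libraries in each group. The grey band spans the middle 90% of all tested genes, from -0.45 to 0.41. Above it lie 21 members, and none passed the adjusted threshold. Members varied more within groups than all genes did, with a median pooled SD of 0.82 against 0.239.

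Mice of 1 group lay far apart. The difference between the groups was smaller than the pooled SD within them for 22 of 35 members, as for 74.4% of all genes, but both were large: the median size of the difference was 0.58 for members and 0.136 for all genes, and the median pooled SD 0.82 and 0.239. The median SD of log2 values was 0.942 among Klebsiella and 0.571 among Lactobacillus libraries for the members, against 0.224 and 0.222 for all genes. The highest library was over 4-fold above the lowest, on the log2(FPKM + 0.5) scale, for 23 of 35 members and for 6.71% of all genes. For 18 of 35 members both the highest and the lowest library were Klebsiella recipients, as for 20.4% of all genes. Klebsiella replicate 2 was the highest library for 21 of 35 members (9.07% of all genes) and Klebsiella replicate 3 the lowest for 18 (10.7%). For 19 members Klebsiella replicate 3 lay below every Lactobacillus library, as for 16.7% of all genes.

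An immediate-early level of each library was taken as the median over the 35 members of the log2 value less the mean of that gene over the 8 libraries. It was 0.50, 1.28, -0.90 and 0.23 in Klebsiella replicates 1 to 4, against 0.058, -0.40, -0.14 and -0.60 in Lactobacillus replicates 1 to 4. The groups overlapped, since Klebsiella replicate 3 was below all other libraries. Over all tested genes the same median was between -0.042 and 0.035 in every library. The median difference of the members followed these libraries. It was 0.27 without Klebsiella replicate 2 and 0.98 without Klebsiella replicate 3. Without the pair high in Ctrb1 it was 0.32, and without the pair high in Hoxb6 it was 0.94. It was 0.89 with array weights, which weight each library by its scatter, and 0.88 with log2 Hoxd13, a further gene of position, as a covariate. The count at an unadjusted p under 0.05 moved as well. It was 19 of 35 without Klebsiella replicate 3, where 10.8% of all genes had such a p, 10 without Lactobacillus replicate 1 (11.9%) and 5 without Klebsiella replicate 2 (4.3%). It was 3 without Klebsiella replicate 1 (4.63%), Klebsiella replicate 4 (5.06%) or Lactobacillus replicate 4 (4.54%), and 2 without Lactobacillus replicate 2 (4.64%) or Lactobacillus replicate 3 (3.39%). It was 2 without the pair high in Ctrb1 (2.55%) and 17 without the pair high in Hoxb6 (8.08%), with array weights 15 (10.8%), with the Hoxd13 covariate 9 (10%) and with the mouse number as a block 11 (6.09%).

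**Figure D2:**
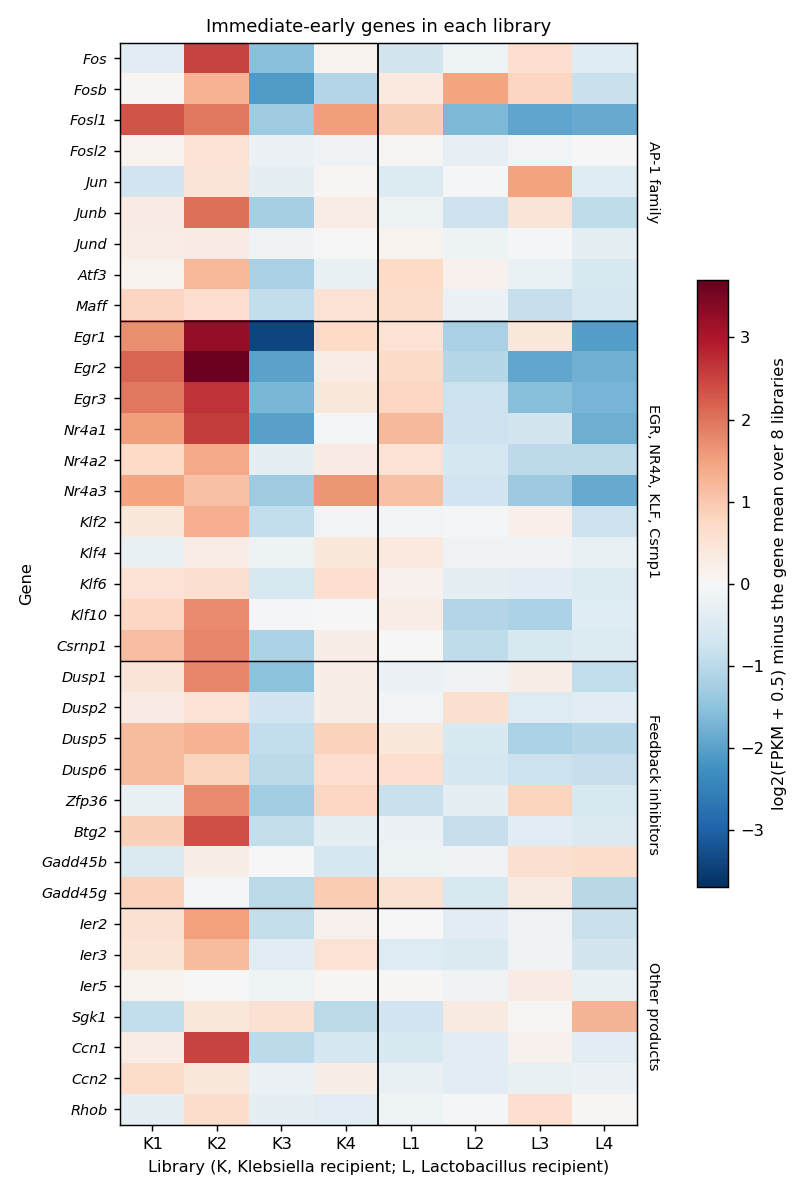
Each cell is log2(FPKM + 0.5) of a gene (rows, by role) in a library (columns; K1 to K4, Klebsiella replicates 1 to 4; L1 to L4, Lactobacillus replicates 1 to 4) less the mean of that gene over 8 libraries. Klebsiella replicate 2 is the highest library for 21 of 35 genes and Klebsiella replicate 3 the lowest for 18.

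AP-1 is a dimer of a FOS-family and a JUN-family protein, or of these with ATF3 or a small MAF protein. Of the 9 members of this kind, 6 had a positive and 3 a negative difference, with a median of 0.22. Fos, the prototype, was at 107, 806, 47.9 and 155 FPKM in mice 1 to 4 of the Klebsiella group, against 88.4, 126, 220.1 and 104 FPKM in mice 1 to 4 of the Lactobacillus group. Klebsiella replicate 2 held over 3 times the level of any other library, the next being Lactobacillus replicate 3, and the groups overlapped. The means were 279 ± 354 FPKM in Klebsiella and 135 ± 59.0 FPKM in Lactobacillus recipients (SD, n = 4 each), and the groups differed on the log2 scale by 0.33 (SE 0.74), with a limma adjusted p of 0.938. Without Klebsiella replicate 2 that difference was -0.45. Jun, the partner that binds DNA with FOS, was at 28.8, 65.4, 37.6 and 49.7 FPKM in mice 1 to 4 of the Klebsiella group, against 33.1, 45.3, 134 and 34.3 FPKM in mice 1 to 4 of the Lactobacillus group. It had another order: Lactobacillus replicate 3 was highest, Klebsiella replicate 1 lowest, and the log2 difference was -0.24 (SE 0.44), with a limma adjusted p of 0.918. That of Jun was 0.22 without Lactobacillus replicate 3.

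Fosl1, which encodes FRA-1, an AP-1 subunit that accumulates under lasting ERK activity, was at 27.2, 21.2, 1.76 and 15.9 FPKM in mice 1 to 4 of the Klebsiella group, against 10.1, 1.27, 0.949 and 1.04 FPKM in mice 1 to 4 of the Lactobacillus group. Klebsiella replicates 1, 2 and 4 were above every Lactobacillus library, but the groups overlapped. Those 3 libraries and Lactobacillus replicate 1 were at 10.1 FPKM or more. Klebsiella replicate 3 and the other Lactobacillus libraries were at 1.76 FPKM or less. Fosl1 averaged 16.5 ± 10.9 FPKM in Klebsiella and 3.33 ± 4.49 FPKM in Lactobacillus recipients (SD, n = 4 each), which on the log2 scale is a difference of 2.27 (SE 0.89) with a limma adjusted p of 0.774, from 49 to 734 reads in Klebsiella and 31 to 275 reads in Lactobacillus libraries. Fosb, a close relative of Fos, was at 6.06, 14.9, 0.956 and 2.48 FPKM in mice 1 to 4 of the Klebsiella group, against 7.62, 16.9, 10.5 and 3.02 FPKM in mice 1 to 4 of the Lactobacillus group. It was highest in Lactobacillus replicate 2, a library in which Fosl1 was low, and its log2 difference was -0.91 (SE 0.73), with a limma adjusted p of 0.801. FOS relatives thus took different orders over the same 8 mice.

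The other AP-1 members ranged from steady to widely spread. Junb, a JUN relative that restrains Jun, was at 86.2 to 822 FPKM in Klebsiella and 105 to 282 FPKM in Lactobacillus recipients, with Klebsiella replicate 2 and Lactobacillus replicate 3 on top as for Fos. Atf3, a stress-induced partner and repressor, was at 8.10 to 45.7 FPKM in Klebsiella and 12.7 to 32.1 FPKM in Lactobacillus recipients, a log2 difference of -0.049 whose sign changed with several settings. Maff, a small MAF protein, was at 11.8 to 39.4 FPKM in Klebsiella and 12.2 to 35.7 FPKM in Lactobacillus recipients. Fosl2, the FRA-2 gene, was at 66.6 to 112 FPKM in Klebsiella and 62.8 to 80.7 FPKM in Lactobacillus recipients, and Jund, the JUN relative that most cells express at rest, at 38.1 to 52.2 FPKM in Klebsiella and 33.0 to 46.4 FPKM in Lactobacillus recipients. Fosl2 and Jund moved least among the AP-1 genes, with a highest library 1.78 and 1.58 times the lowest.

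**Figure D3:**
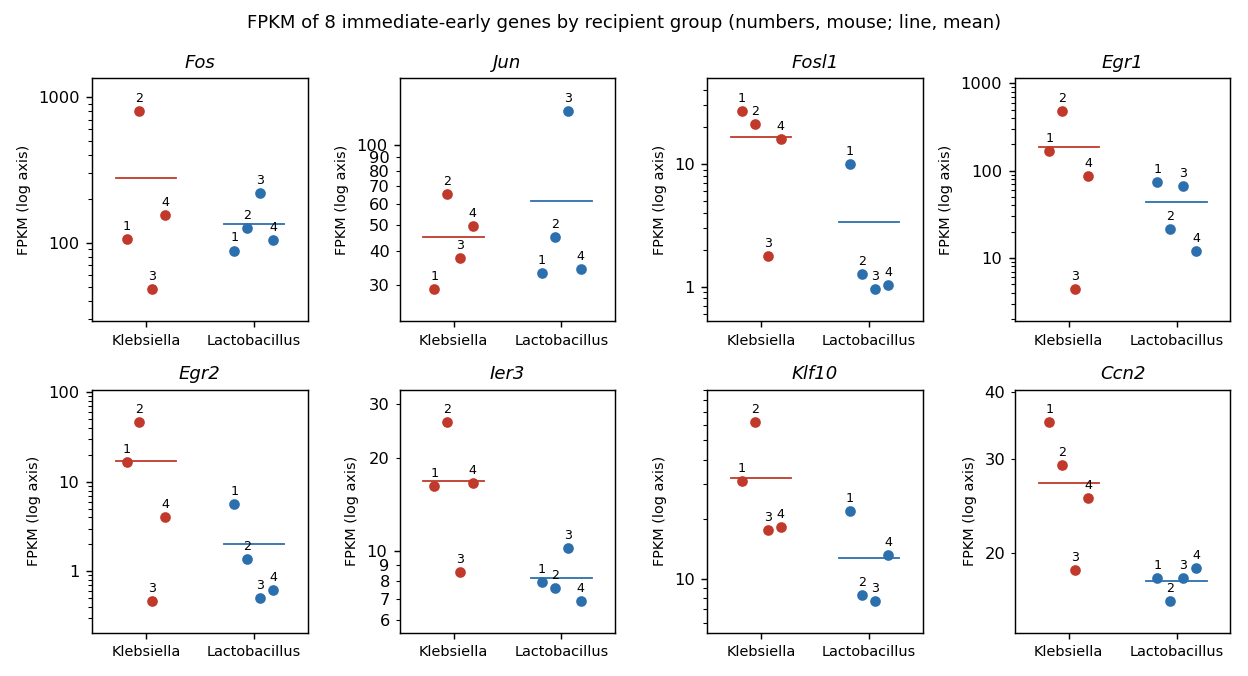
FPKM on a log axis of 8 of the 35 genes in Klebsiella (red) and Lactobacillus (blue) recipients, with 1 point a mouse, numbered by replicate, and a line at the group mean. Klebsiella replicate 3 lies within or below the Lactobacillus range in all 8 panels, with Fos at 47.9 and Egr1 at 4.39 FPKM.

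The second role is that of the EGR, NR4A and KLF transcription factors with Csrnp1, in which 11 of 11 members had a positive difference, with a median of 1.04 and 2 of 11 at an unadjusted p under 0.05 with limma, both higher in Klebsiella recipients (2.55% of all genes were so). EGR proteins are zinc finger factors, and Egr1 is a direct target of ERK and SRF. Egr1 was at 169.7, 486, 4.39 and 86.0 FPKM in mice 1 to 4 of the Klebsiella group, against 74.0, 21.8, 67.1 and 12.1 FPKM in mice 1 to 4 of the Lactobacillus group. The extremes were in the same group, with Klebsiella replicate 2 at 111 times the level of Klebsiella replicate 3. The log2 difference of Egr1 was 1.16 (SE 1.28), with a limma adjusted p of 0.852, and its value over the alternatives was 0.27 to 2.48.

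Egr2, which shares the DNA site of Egr1, was at 16.5, 46.7, 0.470 and 4.09 FPKM in mice 1 to 4 of the Klebsiella group, against 5.71, 1.36, 0.503 and 0.619 FPKM in mice 1 to 4 of the Lactobacillus group. Egr3 was at 10.6, 17.6, 0.390 and 3.30 FPKM in mice 1 to 4 of the Klebsiella group, against 4.41, 1.14, 0.458 and 0.362 FPKM in mice 1 to 4 of the Lactobacillus group. Both were highest in Klebsiella replicates 1 and 2, followed by Lactobacillus replicate 1 and Klebsiella replicate 4, and at 1.36 FPKM or less in the others. Egr2 had a log2 difference of 2.03 (SE 1.12) and Egr3 of 1.67 (SE 0.93), with a limma adjusted p of 0.774 for each. Their low values rest on 9 to 42 reads, so a fold between low libraries is uncertain for these genes.

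The NR4A genes encode orphan nuclear receptors whose activity is set by how much is made. Nr4a1 (NUR77) was at 94.5, 194, 7.68 and 31.5 FPKM in mice 1 to 4 of the Klebsiella group, against 74.2, 18.6, 19.8 and 8.80 FPKM in mice 1 to 4 of the Lactobacillus group. Nr4a2 (NURR1) was at 10.6, 16.9, 4.64 and 7.67 FPKM in mice 1 to 4 of the Klebsiella group, against 9.02, 3.72, 2.90 and 2.88 FPKM in mice 1 to 4 of the Lactobacillus group. Nr4a3 (NOR1) was at 8.65, 6.49, 0.832 and 9.86 FPKM in mice 1 to 4 of the Klebsiella group, against 6.55, 1.53, 0.799 and 0.404 FPKM in mice 1 to 4 of the Lactobacillus group. In all 3 the upper libraries were Klebsiella replicates 1, 2 and 4 and Lactobacillus replicate 1, as for the Egr genes, although Nr4a3 was highest in Klebsiella replicate 4. The log2 differences were 1.04 (SE 0.97) for Nr4a1, 1.03 (SE 0.43) for Nr4a2 and 1.43 (SE 0.78) for Nr4a3, with limma adjusted p values of 0.820, 0.774 and 0.774.

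That set of 4 libraries was picked after the values of these members were seen. It held the 4 highest values for 16 of 35 members and for 6.73% of all genes. Because of that choice the count is a description and no test. The Klf genes were divided in this, with Klf6 and Klf10 among the 16 and Klf2 and Klf4 not. Klf10, which responds to transforming growth factor beta, was at 31.2, 62.0, 17.7 and 18.2 FPKM in mice 1 to 4 of the Klebsiella group, against 21.9, 8.25, 7.75 and 13.2 FPKM in mice 1 to 4 of the Lactobacillus group. Klf10 averaged 32.3 ± 20.8 FPKM in Klebsiella and 12.8 ± 6.58 FPKM in Lactobacillus recipients (SD, n = 4 each), which on the log2 scale is a difference of 1.23 (SE 0.45) with a limma adjusted p of 0.774. Klf4, a factor of differentiated colonic epithelium, was the most abundant member and steady, at 368 to 581 FPKM in Klebsiella and 369 to 581 FPKM in Lactobacillus recipients. Klf6 was at 50.8 to 118 FPKM in Klebsiella and 53.9 to 85.6 FPKM in Lactobacillus recipients, with Klebsiella replicate 3 apart from the other Klebsiella libraries. Klf2, a flow-induced factor of endothelium, was at 13.9 to 68.2 FPKM in Klebsiella and 15.4 to 30.4 FPKM in Lactobacillus recipients. The endothelial markers summed to 162 to 292 FPKM in Klebsiella and 158 to 263 FPKM in Lactobacillus libraries, highest in Klebsiella replicate 1, where Klf2 was second. Csrnp1, a nuclear factor induced by AXIN1, was at 4.06 to 35.4 FPKM in Klebsiella and 4.89 to 9.65 FPKM in Lactobacillus recipients.

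Feedback inhibitors were the third role. Here 7 of 8 members had a positive difference, with a median of 0.48, and 1 of 8 (Dusp5, higher in Klebsiella recipients) had an unadjusted p under 0.05 with limma, against 2.55% of all genes in that direction. Dusp5 and Dusp6 encode phosphatases that inactivate ERK in the nucleus and in the cytoplasm. Dusp5 was at 2.93 to 15.1 FPKM in Klebsiella and 2.34 to 7.85 FPKM in Lactobacillus recipients and Dusp6 at 20.9 to 92.8 FPKM in Klebsiella and 22.5 to 62.9 FPKM in Lactobacillus recipients. Their 4 highest libraries were again Klebsiella replicates 1, 2 and 4 and Lactobacillus replicate 1, and Lactobacillus replicate 1, at 62.9 FPKM of Dusp6, stood apart from the rest of its group. The log2 differences were 1.20 (SE 0.52) and 0.82 (SE 0.48), with a limma adjusted p of 0.774 for each.

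Dusp1, a phosphatase that acts on p38 and JNK as well as ERK, was at 16.2 to 165 FPKM in Klebsiella and 25.1 to 55.5 FPKM in Lactobacillus recipients, and Dusp2, the lowest feedback gene, at 1.03 to 3.16 FPKM in Klebsiella and 1.29 to 3.28 FPKM in Lactobacillus recipients. Zfp36 (tristetraprolin), which binds AU-rich elements and speeds the decay of Fos and cytokine messages, was at 18.7 to 156 FPKM in Klebsiella and 26.2 to 83.0 FPKM in Lactobacillus recipients. As in Fos and Junb, Klebsiella replicate 2 was highest, Lactobacillus replicate 3 next and Klebsiella replicate 3 lowest. Btg2, an antiproliferative protein that recruits a deadenylase, was at 145, 413, 42.2 and 61.7 FPKM in mice 1 to 4 of the Klebsiella group, against 67.8, 43.5, 60.0 and 54.1 FPKM in mice 1 to 4 of the Lactobacillus group. Klebsiella replicate 2 was 9.77 times Klebsiella replicate 3 for Btg2, and the log2 difference was 1.00 (SE 0.61), with a limma adjusted p of 0.774. Gadd45g, a growth arrest and stress protein, was at 17.4 to 69.2 FPKM in Klebsiella and 17.3 to 52.4 FPKM in Lactobacillus recipients. Gadd45b, its relative, ran against the others, at 6.28 to 12.1 FPKM in Klebsiella and 8.63 to 15.9 FPKM in Lactobacillus recipients, and its log2 difference was -0.46 (SE 0.27), with a limma adjusted p of 0.774.

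The remaining members are products of other kinds, with 5 of 7 differences positive and a median of 0.56. Ier3, an early protein linked to survival under NF-κB and ERK, was at 16.2, 26.2, 8.57 and 16.6 FPKM in mice 1 to 4 of the Klebsiella group, against 7.95, 7.60, 10.2 and 6.91 FPKM in mice 1 to 4 of the Lactobacillus group. Klebsiella replicates 1, 2 and 4 were above every Lactobacillus library, and Klebsiella replicate 3 was below Lactobacillus replicate 3. Ier3 averaged 16.9 ± 7.22 FPKM in Klebsiella and 8.17 ± 1.44 FPKM in Lactobacillus recipients (SD, n = 4 each), and the groups differed on the log2 scale by 0.92 (SE 0.29), with a limma adjusted p of 0.774. Ccn2, a matricellular protein and target of YAP and SRF, was at 35.1, 29.2, 18.5 and 25.3 FPKM in mice 1 to 4 of the Klebsiella group, against 17.9, 16.3, 17.9 and 18.7 FPKM in mice 1 to 4 of the Lactobacillus group. Again only Klebsiella replicate 3 overlapped the Lactobacillus libraries, lying below replicate 4 of that group. Ccn2 averaged 27.1 ± 6.97 FPKM in Klebsiella and 17.7 ± 1.03 FPKM in Lactobacillus recipients (SD, n = 4 each), and the groups differed on the log2 scale by 0.56 (SE 0.17), with a limma adjusted p of 0.774, which was 0.381 to 0.985 over the alternatives.

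Ccn1, the relative of Ccn2, was at 22.9, 109.5, 9.32 and 12.0 FPKM in mice 1 to 4 of the Klebsiella group, against 12.6, 14.1, 21.2 and 14.2 FPKM in mice 1 to 4 of the Lactobacillus group. In Ccn1 Klebsiella replicate 2 stood alone, the log2 difference was 0.59 (SE 0.66), with a limma adjusted p of 0.853, and it was -0.14 without that library. Ier2, a nuclear early protein, was at 53.2 to 285 FPKM in Klebsiella and 55.3 to 100.5 FPKM in Lactobacillus recipients, and its profile had the highest correlation with the median of the other members (Pearson r 0.99 over 8 libraries, a description of genes from the same libraries). Ier5, a regulator of heat shock factor, was nearly level, at 13.5 to 16.7 FPKM in Klebsiella and 12.4 to 18.7 FPKM in Lactobacillus recipients. Rhob, a short-lived GTPase, was at 85.2 to 179 FPKM in Klebsiella and 102 to 176 FPKM in Lactobacillus recipients, highest in Klebsiella replicate 2 and Lactobacillus replicate 3. The order with Lactobacillus replicate 3 among the 2 highest libraries was seen in 7 members (Fos, Jun, Junb, Zfp36, Rhob, Gadd45b and Ier5) and in 24.2% of all genes.

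Sgk1, a kinase induced by serum, glucocorticoids and aldosterone that acts on the colonic sodium channel, did not follow the order of the set; its values are given because this was seen in them. Sgk1 was at 33.5, 82.5, 93.1 and 31.2 FPKM in mice 1 to 4 of the Klebsiella group, against 38.6, 78.4, 64.8 and 152 FPKM in mice 1 to 4 of the Lactobacillus group. Lactobacillus replicate 4 and Klebsiella replicate 3, the libraries with the lowest immediate-early level, were highest in Sgk1, and its correlation with the median of the other members was -0.44 (8 libraries). The same 2 libraries were highest in Nr1d1 and Cry2, of 15 clock genes of which 0 passed the adjusted threshold with limma. These 2 genes were picked after their values were seen, and the order of libraries in the other clock genes is not given. Over all tested genes the same libraries were the most often highest, Lactobacillus replicate 4 for 20.6% and Klebsiella replicate 3 for 14.5%. Nr1d1 (REV-ERB alpha) was at 15.8, 21.0, 34.3 and 14.0 FPKM in mice 1 to 4 of the Klebsiella group, against 5.78, 11.4, 7.32 and 30.7 FPKM in mice 1 to 4 of the Lactobacillus group, and Cry2, a clock repressor, at 5.54, 9.47, 12.8 and 4.12 FPKM in mice 1 to 4 of the Klebsiella group, against 8.70, 8.39, 9.09 and 20.9 FPKM in mice 1 to 4 of the Lactobacillus group. No hour of sampling is given in the labels, and the part of time of day in these values was not tested.

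Other measures of the same libraries were set beside the immediate-early level. Heat shock chaperones, which also respond to handling and temperature, had 12 of 14 positive differences, with a median of 0.22 and 0 of 14 past the test (limma). Their largest positive differences were 0.71 for Dnaja1, 0.68 for Hsph1 and 0.61 for Dnajb1, and the lowest were 0.028 for Hspb8, -0.071 for Hspa1b and -0.29 for Hspa1a. Hspa1a, an inducible HSP70, was at 11.6, 20.6, 25.6 and 13.1 FPKM in mice 1 to 4 of the Klebsiella group, against 108, 16.7, 21.5 and 4.36 FPKM in mice 1 to 4 of the Lactobacillus group. The summed chaperones were at 4601, 4913, 5469 and 5274 FPKM in Klebsiella replicates 1 to 4, against 7415, 3577, 3443 and 3276 FPKM in Lactobacillus replicates 1 to 4. They were highest in Lactobacillus replicate 1 and next in Klebsiella replicate 3, the library lowest in the immediate-early level. In both measures Klebsiella replicates 1, 2 and 4 and Lactobacillus replicate 1, which were set apart after the values of members were seen, were above Lactobacillus replicates 2 to 4.

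Mitochondrially encoded transcripts summed to 27169 to 33169.5 FPKM in Klebsiella and 22012 to 38234 FPKM in Lactobacillus libraries, with 8 of 13 positive differences and a median of 0.025. The extremes were 0.27 for mt-Nd3, 0.26 for mt-Nd4l and 0.22 for mt-Co2, and -0.13 for mt-Co1, -0.16 for mt-Nd4 and -0.30 for mt-Atp8. Between 35.95% and 38.18% of reads were spliced in Klebsiella libraries and between 35.19% and 39.70% in Lactobacillus libraries. The lowest shares, in Lactobacillus replicate 4 and Klebsiella replicate 2, belong to libraries far apart in the immediate-early level. Of the clock genes 7 of 15 were positive, with a median of -0.097. The highest differences were 0.82 for Nr1d1, 0.79 for Hlf and 0.62 for Nr1d2, and the lowest -0.40 for Per3, -0.54 for Cry2 and -0.54 for Npas2. At an unadjusted p under 0.05 limma had 3 of 15, 1 higher and 2 lower in Klebsiella recipients, against 6.07% of all genes. The groups did not overlap for 1 of 15, against 2.99% of all genes.

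**Figure D4:**
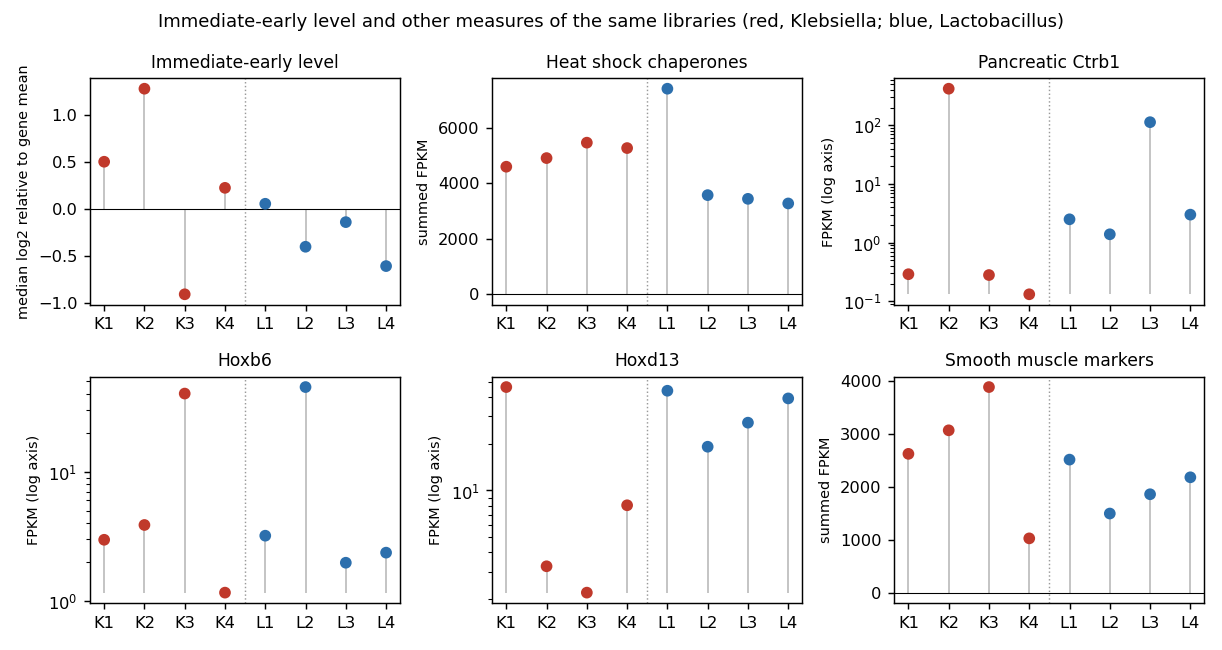
The immediate-early level (median log2 relative to the gene mean) and 5 other measures in FPKM, by library (K1 to K4, Klebsiella in red; L1 to L4, Lactobacillus in blue). The level is highest in Klebsiella replicate 2, at 1.28, which also holds the most Ctrb1, and lowest in Klebsiella replicate 3, at -0.90, which holds high Hoxb6 and the most smooth muscle transcript.

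Markers of other cell types were summed in the same way. The acinar pancreas list, with 9 of 10 genes tested and 9 of 9 differences negative, summed to 186 to 1512 FPKM in Klebsiella and 280.4 to 796 FPKM in Lactobacillus libraries, of which Cela1 made up most where Ctrb1 was low; Prss2, Cpa1, Pnlip, Try4 and Try5 were at 0 in Klebsiella replicates 3 and 4. It was highest in Klebsiella replicate 2 and Lactobacillus replicate 3, the libraries highest in Fos and Junb. Without these libraries the median difference of the members was 0.32, and the difference of Fos was -0.18. Klebsiella replicate 1, second in the immediate-early level, had 0.289 FPKM of Ctrb1. The adipocyte list summed to 22.4 to 35.5 FPKM in Klebsiella and 45.2 to 299 FPKM in Lactobacillus libraries, so the sums did not overlap. Lactobacillus replicate 4 held the 299 FPKM, and the next was Lactobacillus replicate 3 at 89.7 FPKM. Of the tested adipocyte differences 7 of 7 were negative. Gene by gene, the groups did not overlap for 3 of 7, against 2.99% of all genes. Smooth muscle markers, with 10 of 10 differences positive, summed to 1025 to 3881 FPKM in Klebsiella and 1494 to 2511 FPKM in Lactobacillus libraries and were highest in Klebsiella replicate 3. The part of these tissues in the levels of the members was not tested.

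The sums of the other marker lists overlapped between the groups. Fibroblast markers summed to 661 to 981 FPKM in Klebsiella libraries, a range that also held all 4 Lactobacillus libraries (lowest 871 FPKM), with 3 of 8 differences positive. Myeloid markers summed to 325 to 416 FPKM in Klebsiella and 372 to 561 FPKM in Lactobacillus libraries, with 2 of 10 positive, and neutrophil markers to 38.7 to 88.1 FPKM in Klebsiella and 49.1 to 179 FPKM in Lactobacillus libraries, with 3 of 4 tested positive. Lymphocyte markers summed to 272 to 976 FPKM in Klebsiella and 329 to 696 FPKM in Lactobacillus libraries, with 3 of 8 positive, and neuron and glia markers to 32.1 to 81.2 FPKM in Klebsiella and 45.4 to 90.8 FPKM in Lactobacillus libraries, with 4 of 9 positive. Erythrocyte markers summed to 53.1 to 115 FPKM in Klebsiella and 77.5 to 169.6 FPKM in Lactobacillus libraries, with 0 of 5 positive. Epithelial markers had 8 of 10 positive, endothelial markers 10 of 10 and the position markers 3 of 9. With limma 2 of 10 epithelial markers had an unadjusted p under 0.05, both higher in Klebsiella recipients (2.55% of all genes were so). In the other direction, 6 of 7 tested adipocyte markers, 2 of 9 position markers and 1 of 10 myeloid markers were lower at such a p. The other marker lists had 0, and 6.07% of all genes had such a p in either direction. The epithelial sums were 9323, 8273, 7048 and 8826 FPKM in Klebsiella replicates 1 to 4. In Lactobacillus replicates 1 to 4 they were 8528, 6916, 7777 and 6271 FPKM. The 4 highest were Klebsiella replicates 1, 2 and 4 and Lactobacillus replicate 1, as in the immediate-early level. That set was picked after the values of members were seen, and it held the 4 highest values for 6.73% of all genes. The part of epithelium in that level was not tested. The labels say nothing of the interval between death and freezing, and the part of sampling and handling in the immediate-early level was not tested.

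Genes around the members in the same pathways were read from lists made by pathway. Upstream kinases and transcription factors were steady: 21 of 31 differences were positive, with a median of 0.051 and a median SD over the 8 libraries of 0.15, against 0.87 for the members and 0.24 for all genes. No gene of this list passed the adjusted threshold with limma. At an unadjusted p under 0.05 limma had 2 of 31 (Srf and Tead1, both higher in Klebsiella recipients). Of all genes 6.07% had such a p in either direction and 2.55% in that one. Tead1, a partner of YAP, was at 18.03 to 22.06 FPKM in Klebsiella and 14.35 to 18.01 FPKM in Lactobacillus recipients, and was named after its values were seen. It was the 1 gene of 31 whose groups did not overlap, a share near the 2.99% of all genes. The largest positive differences were 0.80 (SE 0.26) for Srf, 0.48 (SE 0.24) for Crem and 0.38 (SE 0.20) for Rela, and the lowest were -0.079 (SE 0.099) for Mapk9, -0.14 (SE 0.12) for Mrtfa and -0.15 (SE 0.14) for Mapk14. Srf, the serum response factor and itself an early gene, was at 47.9, 47.8, 25.6 and 38.5 FPKM in mice 1 to 4 of the Klebsiella group, against 34.1, 20.03, 20.8 and 16.4 FPKM in mice 1 to 4 of the Lactobacillus group. As in the Egr genes, its 4 highest libraries were Klebsiella replicates 1, 2 and 4 and Lactobacillus replicate 1, the set picked from the values of members (6.73% of all genes).

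Of 59 other early and delayed-early genes 56 were tested (Egr4, Cxcl2 and Il6 were below the filter). In this list 46 of 56 differences were positive, with a median of 0.54, and 0 passed the adjusted threshold with limma, while 12 higher and 1 lower in Klebsiella recipients had an unadjusted p under 0.05, against 430 higher (2.55%) and 594 lower of 16865 genes. Arc, an early gene best known from neurons, was at 43.8, 54.0, 0.241 and 6.15 FPKM in mice 1 to 4 of the Klebsiella group, against 8.67, 0.844, 0.909 and 0.261 FPKM in mice 1 to 4 of the Lactobacillus group. Plaur, the urokinase receptor and an AP-1 target, was at 116, 74.5, 7.26 and 62.0 FPKM in mice 1 to 4 of the Klebsiella group, against 35.4, 7.90, 4.46 and 4.79 FPKM in mice 1 to 4 of the Lactobacillus group. Errfi1, a feedback inhibitor of the epidermal growth factor receptor, was at 314, 330.4, 28.1 and 148 FPKM in mice 1 to 4 of the Klebsiella group, against 116, 33.1, 20.6 and 25.9 FPKM in mice 1 to 4 of the Lactobacillus group. All 3 were highest in Klebsiella replicates 1 and 2 and low in Klebsiella replicate 3 and Lactobacillus replicates 2 to 4, and Lactobacillus replicate 1 was above the rest of its group. Their log2 differences were 2.45 (SE 1.35), 2.27 (SE 0.90) and 1.92 (SE 0.82), with limma adjusted p values of 0.774, 0.774 and 0.774. At the other end were Nfkbiz, an atypical NF-κB inhibitor, at -0.49 (SE 0.13), Klf5, a crypt transcription factor, at -0.32 (SE 0.25) and Tnfaip3 (A20), an NF-κB inhibitor, at -0.22 (SE 0.25). The groups did not overlap for 2 of the 56 (Nfkbiz and Plk2), a share near the 2.99% of all genes.

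The 10 other genes whose profile over the 8 libraries was most like the immediate-early level, out of 16830, had a Pearson r of 0.93 to 0.96. They were Ch25h, Hbegf, Gm16175, Ifrd1, Gm16174, Arc, Rnf41, Zfp408, Apold1 and Gm10232. Some rest on few reads in a library: Gm16175 had 0 to 15 reads, Ch25h 11 to 245 and Arc 12 to 3168. With 8 libraries and so many genes, high values are reached by many genes, and the r is given as a description of likeness. Hbegf, a ligand of the epidermal growth factor receptor, was at 60.7, 117, 5.48 and 29.7 FPKM in mice 1 to 4 of the Klebsiella group, against 31.6, 9.59, 8.31 and 5.21 FPKM in mice 1 to 4 of the Lactobacillus group. Ch25h, cholesterol 25-hydroxylase, was at 3.00, 9.45, 0.4997 and 2.18 FPKM in mice 1 to 4 of the Klebsiella group, against 1.43, 1.39, 1.23 and 1.23 FPKM in mice 1 to 4 of the Lactobacillus group. Both were highest in Klebsiella replicate 2 and then replicate 1, as was the set.

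**Figure D5:**
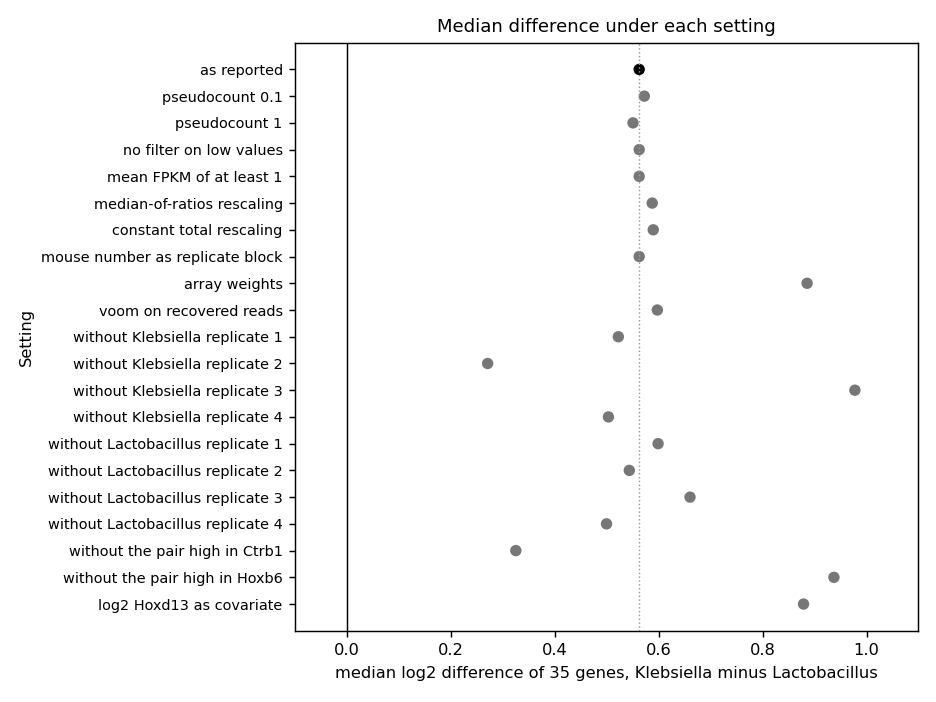
The median log2 difference of the 35 genes (x axis) as reported (black, 0.56) and under each of 20 other settings (grey, y axis). It stayed above 0 in all of them, lowest without Klebsiella replicate 2, at 0.27, and highest without Klebsiella replicate 3, at 0.98.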

How the data were processed

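RNA of 8 mouse intestines was sequenced by the authors. The submitters' processing notes name DESeq2 1.10.1, HTSeq 0.6.0, STAR 2.5.1b and CASAVA without saying how each was used; the sources used here state no genome build or annotation. The authors deposited FPKM values for 49585 identifiers, a count of filtered reads and the percent of spliced reads per library; other values, such as their 15-gene table, were not used here. GENCODE M21 gave symbols for 49326 identifiers.

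Values were analysed as log2(FPKM + 0.5), which understates changes of low genes, for 16865 genes with a mean of at least 0.5 FPKM, using limma 3.58.1 in R 4.3.3 (variance trend, two-sided, Benjamini-Hochberg over all genes), and Python 3.11.15 otherwise. Reads were recovered as whole multiples (tolerance 1e-05 reads) in all 26963 genes that 2 or more libraries detected; a common factor cannot be seen. The fit was tested on simulated data.

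The members and lists were chosen with earlier results of these data known. Values in every library are given for Fos, Jun, Egr1 and Ccn2, the 10 members of largest SD and the 5 of smallest p, and of the other pathway lists the 3 highest and 3 lowest differences are named; Sgk1, Hspa1a, Srf, Arc, Plaur, Errfi1, Nr1d1, Cry2, Hbegf and Ch25h were given in full after their values were seen.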

Additional observations from a re-analysis of the deposited data

Results flagged for a closer look

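Within each group of 4 libraries, the gap between an extreme library and its nearest neighbour was set against the range of the group on the log2 scale. Of 70 such groups (35 genes in 2 groups) 5 exceeded the 95% critical value of Dixon, where chance gives about 1 in 20. In Lactobacillus recipients replicate 1 was high for Fosl1, at 10.1 FPKM against 0.949 to 1.27 in the other 3, and for Dusp6, at 62.9 FPKM against 22.5 to 26.5. In Klebsiella recipients replicate 3 was low for Klf6, at 50.8 FPKM against 112.7 to 118.4, and for Maff, at 11.8 FPKM against 33.0 to 39.4. Klebsiella replicate 2 was high for Rhob, at 178.6 FPKM against 85.2 to 90.95 in the other 3.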

How the results depend on the processing

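With limma 0 genes and 0 members had an adjusted p under 0.05 as reported and under each of 20 other settings, and the smallest adjusted p of a member over them was 0.366. The median difference of 0.56 was 0.55 to 0.60 under other pseudocounts, filters and rescalings and with voom on recovered reads, and 0.27 to 0.98 when a library was left out. Of the members 24 to 30 were positive when a library was left out. Of 700 member values 679 kept their sign and 21 did not. Without the pair high in Ctrb1 the difference was -0.18 for Fos, 0.022 for Jun, -0.087 for Dusp2 and -0.022 for Klf4. That of Atf3, -0.049, was 0.32 with array weights, 0.013 with voom, 0.385 without the pair high in Hoxb6 and 0.12 with the Hoxd13 covariate. With a library left out the values spanned -0.47 to 0.34 for Atf3, -0.14 to 1.02 for Ccn1, -0.016 to 1.09 for Dusp1, -0.45 to 0.90 for Fos, -0.049 to 0.14 for Ier5, -0.45 to 0.22 for Jun, -0.028 to 0.72 for Klf2, -0.020 to 0.23 for Klf4 and -0.031 to 0.98 for Zfp36. The cause was not tested. With the mouse number as a block the median was 0.56, with 0 genes called and 11 members at an unadjusted p under 0.05, against 6 as reported; the numbers name different mice, and libraries of the same number correlated at 0.19, -0.10, -0.059 and -0.16 in their deviations from the group means. Depth limits Egr2 and Egr3 in their low libraries, with 9 to 42 reads, and Dusp2, with 20 to 77 reads over the 8 libraries. It also limits the low libraries of Fosl1, with 31 to 49 reads, of Nr4a3, with 23 to 98 reads, and of Fosb, with 51 reads in Klebsiella replicate 3.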
